A study of Mus musculus with 89 samples.

Results

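Notch signalling genes were followed in forebrains taken from mouse embryos on embryonic day 18.5, from a pair of Down syndrome models and their euploid littermates. The genes were the receptors Notch1, Notch2 and Notch3, the ligands Dll3 and Jag1, the DNA-binding effector Rbpj, and the target genes Hes1, Hes5, Hey1 and Hey2. They were chosen by name, and each of the 10 was measured by 1 probe set among the 22206 probe sets of the array. No member passed the 10% false discovery threshold in either model. Trisomic and euploid embryos overlapped for every member, which is a description, as the share of all probe sets that overlap is not given. Hey2 in the Ts66Yah model came nearest, at 1.20-fold and an adjusted p of 0.102 without 1 array of low spread. Rbpj and Hes5 had a negative correlation among embryos in both colonies. By Pearson's r it did not pass over all embryos of a colony or with array spread regressed out, and it passed within litters.

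Ts65Dn embryos (n = 23) carried a small additional chromosome that holds distal mouse chromosome 16, with many counterparts of human chromosome 21 genes, together with a proximal piece of chromosome 17 that has none. They were set against EupTs65Dn embryos (n = 18), their euploid littermates. Ts66Yah embryos (n = 24) carried the chromosome 16 piece without the piece of chromosome 17, and were set against EupTs66Yah littermates (n = 24). All groups shared a mixed B6 and C3H background. The Ts65Dn chromosome was passed on only by the mother, because males of that strain are infertile. Labels gave 13 females among Ts65Dn, 9 among EupTs65Dn, 13 among Ts66Yah and 11 among EupTs66Yah. Each colony gave 6 litters, and each embryo had 1 array, so p-values describe the spread between embryos. None of the 10 genes lies on the triplicated segments. Hes1 is on chromosome 16 but 269 protein-coding genes before Mrpl39, the first gene of the triplicated stretch, and Notch3 is on chromosome 17, 375 genes beyond Pde10a. The others lie on chromosome 2 (Notch1 and Jag1), 3 (Notch2 and Hey1), 4 (Hes5), 5 (Rbpj), 7 (Dll3) and 10 (Hey2).

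Notch receptors are cleaved when a ligand on a neighbouring cell binds them, and the freed intracellular part enters the nucleus. There it joins RBPJ, which otherwise holds the same genes silent, and switches on genes of the HES and HEY families. HES and HEY proteins repress proneural genes, and in the embryonic forebrain this keeps radial glia, the stem cells of the cortex, from turning into neurons too early. In brain vessels the same pathway acts between endothelial cells and the mural cells around them.

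The values are log2 probe set signals, and they differ between colonies over the whole array. Array means lay between 5.26 and 5.33 in Ts65Dn, 5.29 and 5.31 in EupTs65Dn, and 6.37 and 6.40 in Ts66Yah. In EupTs66Yah they lay between 6.35 and 6.41 apart from 1 array at 6.05. Levels are therefore ordered only within a colony. That low-spread array, EupTs66Yah replicate 16, had a standard deviation of 1.13 against at least 2.23 in the other 23, and it gave the lowest value of its group for 7 of the 10 genes. Ts66Yah results are given with and without it. The triplicated chromosome 16 genes sat nearer the other genotype in 1 Ts65Dn, 2 Ts66Yah and 1 EupTs66Yah array, and Y-linked genes went against the sex label in 17 arrays. Of the forebrain markers, Lhx2 and Emx2 lay above the median signal of both colonies and Emx1 did not. Of the 10 genes all but Notch3 and Dll3 lay above that median, and 10 lay above the lower quartile. In bulk tissue, fewer cells of a type and less RNA per cell cannot be told apart.

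The sequences shown are the promoters of Hey2, the target nearest to the threshold, and of Hes5, the target whose level ran opposite to Rbpj among embryos. They are from RefSeq (GRCm38.p6), each 280 bases long, read 5′ to 3′ in the direction of the gene and ending 30 bases past its start. Capitals mark the core of the motif that RBPJ binds, TGGGAA, or its reverse complement TTCCCA.
Hey2, chr10:30842754-30843033, minus strand: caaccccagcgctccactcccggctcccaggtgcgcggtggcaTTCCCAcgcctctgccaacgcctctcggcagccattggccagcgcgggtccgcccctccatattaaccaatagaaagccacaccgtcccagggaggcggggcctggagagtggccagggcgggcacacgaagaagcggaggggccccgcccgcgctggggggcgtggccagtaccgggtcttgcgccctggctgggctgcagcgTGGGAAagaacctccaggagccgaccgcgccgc
Hes5, chr4:154960673-154960952, plus strand: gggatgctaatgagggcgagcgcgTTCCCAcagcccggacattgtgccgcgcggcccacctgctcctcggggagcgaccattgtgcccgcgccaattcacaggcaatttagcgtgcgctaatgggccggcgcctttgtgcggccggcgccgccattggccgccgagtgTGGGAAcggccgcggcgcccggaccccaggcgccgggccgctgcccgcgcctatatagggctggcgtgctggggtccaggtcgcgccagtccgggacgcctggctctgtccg
In Hey2 the matches begin at position -207 and at -3, so that the second spans the start. In Hes5 they begin at -226 and -82. Of 32851 promoter windows of this length in the table, from 250 bases before to 30 after the start, 7807 (23.8%) held at least 1 match on either strand and 1116 (3.40%) held 2 or more. Entries were found for 8 of the 10 genes, and 3 of these (Hes5, Hey2 and Rbpj) had a match. A match to these letters is a description and does not by itself show binding.

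**Figure D1:**
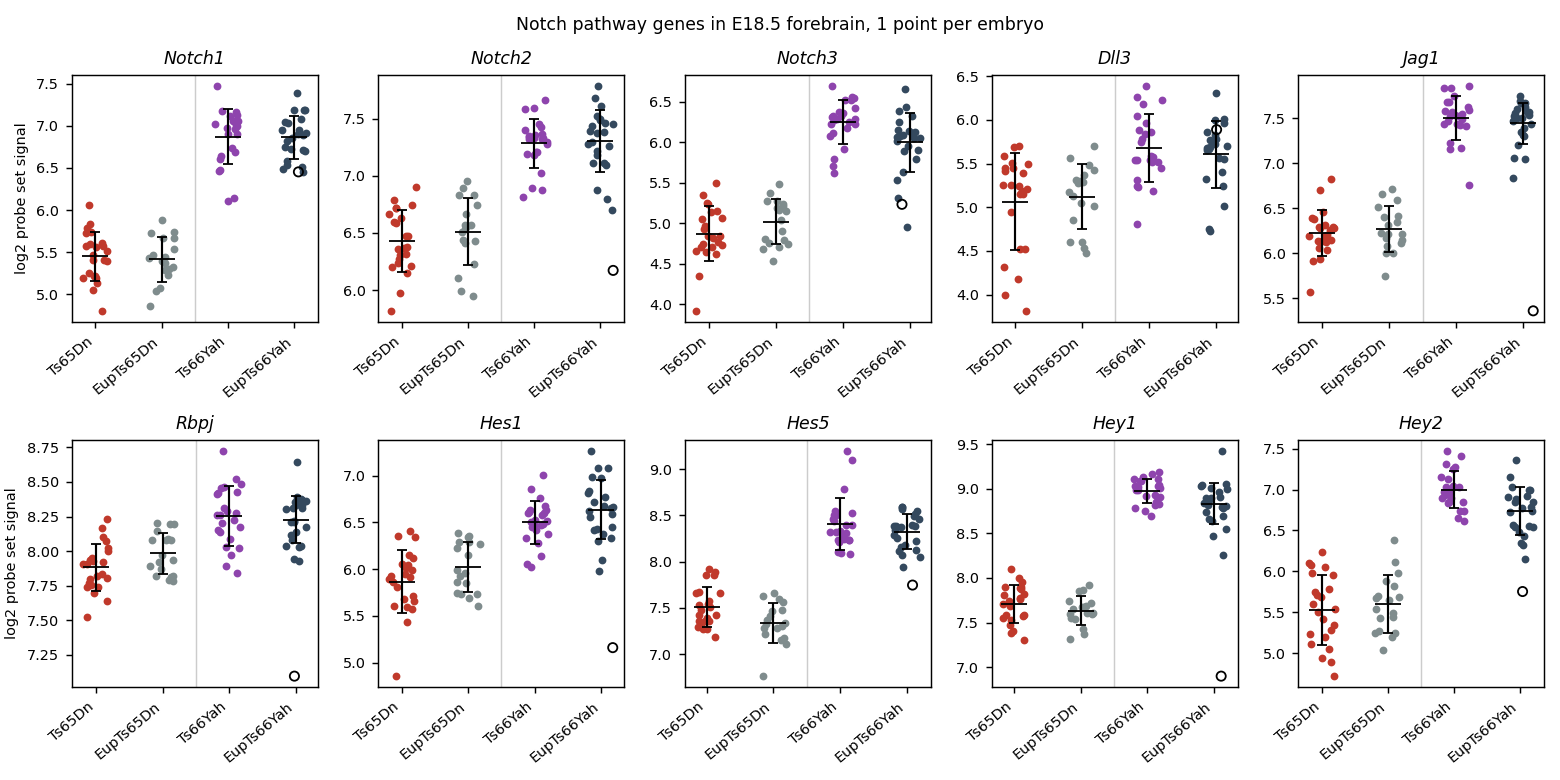
Log2 probe set signal (vertical axes) of the 10 genes in every embryo, 1 point each, by genotype group (horizontal axes). Bars are the mean ± SD without the low-spread EupTs66Yah array, which is drawn as an open circle and is lowest of its group for 7 genes. Trisomic and euploid embryos overlapped for every gene, and the share of all probe sets that overlap is not given.

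In Ts65Dn forebrains the test called 0 of the 10 genes, where limma called 0.491% of all probe sets. The unpaired t-test that the series text names also called 0. At an unadjusted p under 0.05 limma had 1 of the 10, Hes5, where 5.79% of all probe sets fell (3.28% higher and 2.5% lower). The median log2 change of the 10 genes was -0.064, with 3 above and 7 below 0, and the median over all probe sets was -0.0021. In Ts66Yah forebrains 0 of the 10 passed both with all arrays, where 0.171% of probe sets were called, and without the low-spread array, where 0.932% were called. The t-test of the series text again called 0 either way. At an unadjusted p under 0.05 the genes were Notch3, Hey1 and Hey2 (3 of 10, all higher) in both versions, against 10.2% of all probe sets with that array (5.51% higher) and 12.1% without it (7.16% higher and 4.94% lower). The median change of the 10 genes was 0.091 with the array and 0.067 without it, against 0.043 and 0.0044 over all probe sets.

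**Figure D2:**
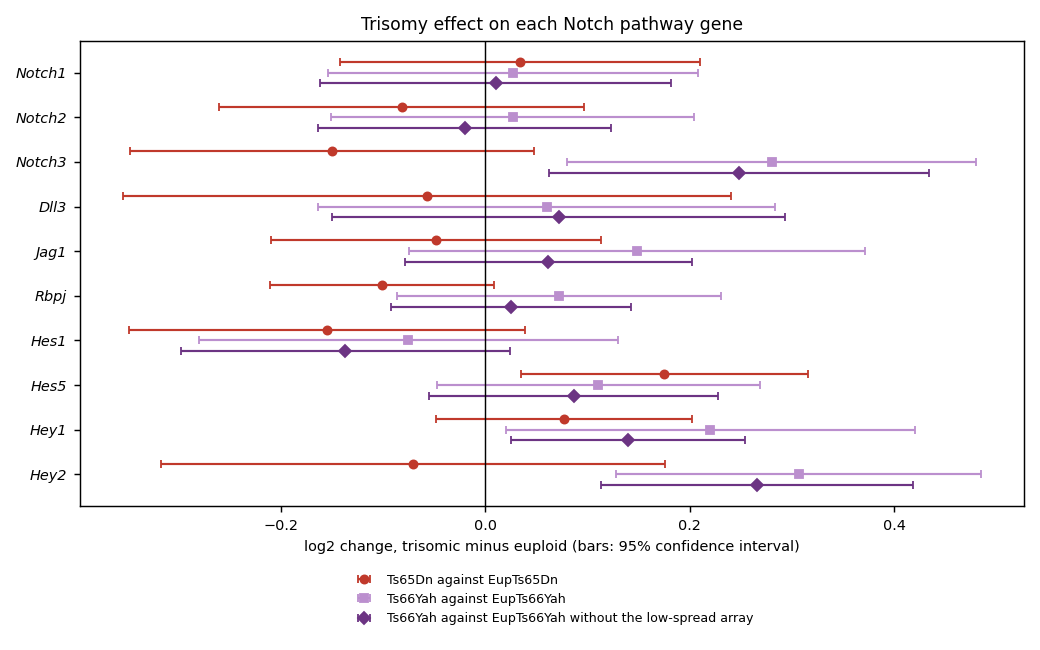
Log2 change of each gene, trisomic minus euploid (horizontal axis, bars 95% confidence interval), in Ts65Dn, in Ts66Yah with all arrays and in Ts66Yah without the low-spread array. Intervals stay clear of 0 for Hes5 in Ts65Dn and for Notch3, Hey1 and Hey2 in Ts66Yah, none of which passed after adjustment.

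Among the receptors, Notch1 is carried by neural progenitors and is the receptor most studied in the cortex. Its signal had a lowest, median and highest value of 4.80, 5.47 and 6.06 in Ts65Dn embryos, against 4.86, 5.42 and 5.88 in EupTs65Dn embryos. In the other colony these were 6.11, 6.98 and 7.47 in Ts66Yah embryos, against 6.45, 6.89 and 7.39 in EupTs66Yah embryos without the low-spread array. The ranges lay on top of each other in both colonies. The difference on the log2 scale was 0.034 ± 0.087 (SE) in Ts65Dn and 0.010 ± 0.085 in Ts66Yah, with intervals from -0.14 to 0.21 and from -0.16 to 0.18.

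Notch2, also a progenitor receptor, had values of 5.82, 6.38 and 6.90 in Ts65Dn embryos, against 5.95, 6.55 and 6.96 in EupTs65Dn embryos. Ts66Yah embryos gave 6.82, 7.33 and 7.67, against 6.70, 7.37 and 7.79 in EupTs66Yah embryos. Ts66Yah values lay inside the euploid range, while the lowest Ts65Dn value lay below its own. Its log2 change was -0.082 ± 0.088 in Ts65Dn and -0.020 ± 0.071 in Ts66Yah, and within litters the trisomic mean was the lower in 5 of 6 litters of each colony. With the low-spread array the Ts66Yah change was 0.027 ± 0.088, so its sign turned on that array.

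Notch3, the receptor of pericytes and vascular smooth muscle, lay below the median signal of each colony. Its lowest, median and highest values were 5.62, 6.29 and 6.70 in Ts66Yah embryos, against 4.96, 6.06 and 6.65 in EupTs66Yah embryos. The groups overlapped through most of their range, but 20 of 24 Ts66Yah embryos lay above the euploid median. This gave a log2 change of 0.25 ± 0.093 (SE, 95% interval 0.062 to 0.43), or 1.19-fold, with a limma adjusted p of 0.249. With the low-spread array it was 0.28 ± 0.10 and the adjusted p 0.359. The trisomic mean was the higher in 4 of 6 litters. In the litters where it was lower, WT11 and WT13, there were 1 and 2 EupTs66Yah embryos. With array spread as a covariate the change was 0.13, with an adjusted p of 0.626. In the other colony Notch3 had 3.92, 4.84 and 5.49 in Ts65Dn embryos, against 4.54, 5.09 and 5.48 in EupTs65Dn embryos. There 17 of 23 Ts65Dn embryos were under the median of EupTs65Dn, the log2 change was -0.15 ± 0.098, and the adjusted p was 0.926. It was -0.26 without litter TS11 and -0.071 without litter TS113. The difference between the trisomy effects, Ts65Dn minus Ts66Yah, was -0.40 ± 0.14 (interval -0.67 to -0.13). Its unadjusted p was 0.0043 and its adjusted p 0.452 (limma, 88 arrays), so the opposite signs did not pass as a difference. With all 89 arrays that difference was -0.43 ± 0.14, with an adjusted p of 0.650.

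Of the ligands, Dll3 acts inside the cell that makes it and dampens Notch signalling there. It was below the median signal of each colony and was the most variable member in the Ts65Dn colony. Dll3 had values of 3.82, 5.24 and 5.71 in Ts65Dn embryos, against 4.48, 5.22 and 5.70 in EupTs65Dn embryos, and the SD was 0.56 in Ts65Dn and 0.37 in EupTs65Dn. In Ts66Yah embryos they were 4.81, 5.58 and 6.39, against 4.73, 5.68 and 6.30 in EupTs66Yah embryos. The lower tail reached further down in Ts65Dn, while the medians of the groups differed little. Its log2 change was -0.057 ± 0.147 in Ts65Dn and 0.072 ± 0.110 in Ts66Yah. The intervals ran from -0.35 to 0.24 and from -0.15 to 0.29, so the sign of a change was not settled in either model.

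Jag1, a ligand of the Jagged family that also acts in developing vessels, had 5.57, 6.20 and 6.82 in Ts65Dn embryos, against 5.74, 6.22 and 6.71 in EupTs65Dn embryos. In Ts66Yah embryos the values were 6.76, 7.53 and 7.86, against 6.84, 7.50 and 7.74 in EupTs66Yah embryos. The groups coincided in both colonies. Jag1 differed by -0.048 ± 0.080 on the log2 scale in Ts65Dn and 0.062 ± 0.070 in Ts66Yah. The Ts66Yah change was 0.15 ± 0.11 with the low-spread array, in which Jag1 read 5.36.

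Rbpj, the transcription factor on which all the receptors converge, was among the least variable members. Its values were 7.53, 7.90 and 8.23 in Ts65Dn embryos, against 7.79, 7.96 and 8.20 in EupTs65Dn embryos. In the second colony they were 7.84, 8.26 and 8.72 in Ts66Yah embryos, against 7.93, 8.22 and 8.64 in EupTs66Yah embryos. The Ts65Dn group reached lower than its euploid group, and 17 of 23 embryos lay below the euploid median. Rbpj differed by -0.10 ± 0.054 (log2) in Ts65Dn, with an adjusted p of 0.889, and the trisomic mean was the lower in 5 of 6 litters. In Ts66Yah it was 0.025 ± 0.058, and 0.072 ± 0.079 with the low-spread array.

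Hes1, the target that represses proneural genes in progenitors, had a lower mean in both models, with the low-spread array and without it. Its lowest, median and highest values were 4.86, 5.92 and 6.41 in Ts65Dn embryos, against 5.60, 5.97 and 6.38 in EupTs65Dn embryos. In Ts66Yah embryos they were 6.03, 6.51 and 7.01, against 5.99, 6.65 and 7.26 in EupTs66Yah embryos. The groups overlapped in both colonies, although 1 Ts65Dn embryo, at 4.86, lay well below EupTs65Dn. The next lowest Ts65Dn value was 5.44. The array of the lowest embryo had the smallest standard deviation of its group (2.42) and also the lowest Notch1 and Dll3. Below their euploid medians lay 14 of 23 Ts65Dn and 20 of 24 Ts66Yah embryos. Hes1 differed by -0.15 ± 0.096 (log2) in Ts65Dn (interval -0.35 to 0.039) and -0.14 ± 0.080 in Ts66Yah (interval -0.30 to 0.024). Limma's adjusted p was 0.924 and 0.501. Without litter TS125 the Ts65Dn change was -0.046. The Ts66Yah change was -0.076 ± 0.102 with the low-spread array, in which Hes1 read 5.16.

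Hes5, the target that follows Notch activity in radial glia, was the Ts65Dn member with the smallest p. Its values were 7.19, 7.48 and 7.92 in Ts65Dn embryos, against 6.76, 7.33 and 7.66 in EupTs65Dn embryos. The groups overlapped, and 18 of 23 Ts65Dn embryos lay above the euploid median. Hes5 differed by 0.18 ± 0.070 on the log2 scale (interval 0.035 to 0.32), or 1.13-fold. Its unadjusted p was 0.0157 and its limma adjusted p 0.707, so it did not pass. Within litters the trisomic mean was the higher in 5 of 6 litters, by between -0.042 and 0.34. In Ts66Yah embryos Hes5 had 8.08, 8.33 and 9.20, against 7.94, 8.38 and 8.59 in EupTs66Yah embryos. There the log2 change was 0.086 ± 0.070, with 11 of 24 embryos above the euploid median, and 0.11 ± 0.079 with the low-spread array. The difference between the trisomy effects was 0.089 ± 0.099, with an interval from -0.11 to 0.29.

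Hey1, a repressor of the HEY family found in progenitors and in vessels, had 8.70, 9.00 and 9.19 in Ts66Yah embryos, against 8.26, 8.84 and 9.42 in EupTs66Yah embryos. The trisomic values lay inside the euploid range, with an SD of 0.13 against 0.23, and 19 of 24 were above the euploid median. The log2 change was 0.14 ± 0.057 (interval 0.025 to 0.25), or 1.10-fold, and limma's adjusted p was 0.306. With the low-spread array, where Hey1 read 6.90, it was 0.22 ± 0.10, more than 1.5 times as large, with an adjusted p of 0.455. In Ts65Dn embryos Hey1 had 7.31, 7.74 and 8.11, against 7.32, 7.63 and 7.92 in EupTs65Dn embryos. That change was 0.076 ± 0.062, higher in 5 of 6 litters, and the adjusted p was 0.948.

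Hey2, the related repressor known for its part in arterial vessels and in the developing heart, was the Ts66Yah member with the smallest p. Its lowest, median and highest values were 6.61, 6.98 and 7.47 in Ts66Yah embryos, against 6.15, 6.78 and 7.36 in EupTs66Yah embryos. The groups overlapped, but the euploid group reached lower, and 20 of 24 Ts66Yah embryos lay above the euploid median. The log2 change was 0.27 ± 0.076 (interval 0.11 to 0.42), or 1.20-fold. The unadjusted p was 0.00098, rank 211 of all probe sets, and limma's adjusted p of 0.102 lay just outside the threshold. With the low-spread array it was 0.31 ± 0.089, 1.24-fold, with an adjusted p of 0.228. The mean was the higher in 5 of 6 litters, by between -0.27 and 0.62. The difference of -0.27 was that of litter WT11, which had 1 EupTs66Yah embryo. Litter WT18 gave the difference of 0.62, and without that litter the change was 0.17, with an adjusted p of 0.486. Without the 6 EupTs66Yah arrays whose standard deviation was below that of every Ts66Yah array, a choice made after the values were seen, it was 0.19, with an adjusted p of 0.447. Sex as a covariate, a filter at the median signal, or a trended and robust prior put Hey2 past the threshold. So did leaving out litter WT11 or WT13. In these fits the limma adjusted p lay between 0.0540 and 0.0981. The sex covariate followed the labels, which Y-linked genes went against in 2 Ts66Yah and 7 EupTs66Yah arrays, the low-spread array among the 7.

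In the other colony Hey2 had 4.72, 5.54 and 6.24 in Ts65Dn embryos, against 5.03, 5.59 and 6.39 in EupTs65Dn embryos. Its log2 change there was -0.071 ± 0.122, and 12 of 23 embryos lay below the euploid median. The difference between the trisomy effects, Ts65Dn minus Ts66Yah, was -0.34 ± 0.14 (interval -0.62 to -0.056) without the low-spread array, with an adjusted p of 0.588, and -0.38 ± 0.15 with all arrays. For that difference limma called 0 of the 10 genes, against 0.149% of all probe sets without the low-spread array and 0.00901% with all arrays. At an unadjusted p under 0.05 it had Notch3 and Hey2 either way (2 of 10), against 7.14% and 7.05% of all probe sets.

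**Figure D3:**
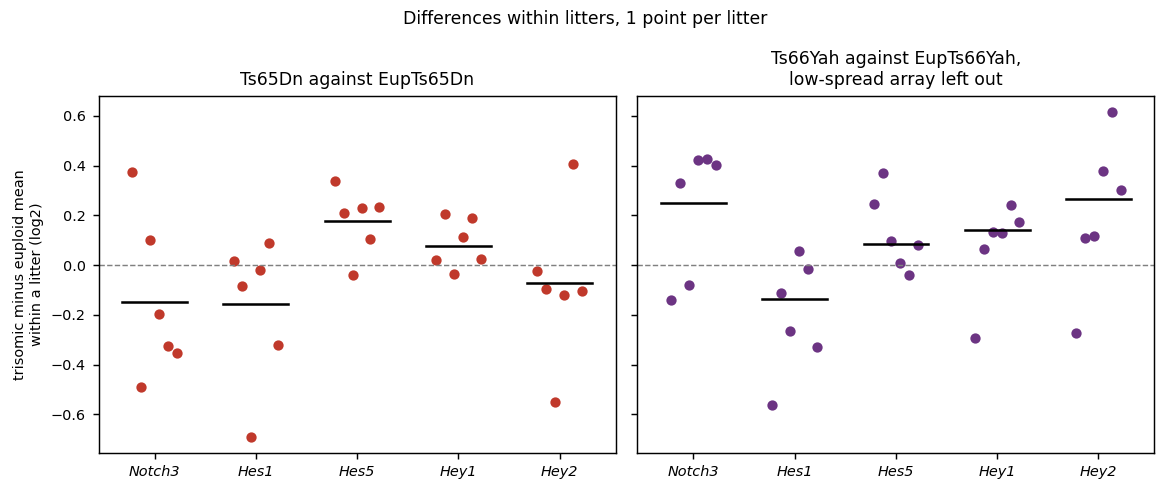
Trisomic minus euploid mean within each litter (vertical axis, log2), 1 point per litter, for Notch3, Hes1, Hes5, Hey1 and Hey2. The left panel is Ts65Dn and the right panel Ts66Yah without the low-spread array, and lines are the change over all embryos. Hes5 in Ts65Dn and Hey1 and Hey2 in Ts66Yah were higher in 5 of 6 litters, while Notch3 took both signs in each colony. Litter WT11 had 1 euploid embryo, and litters WT13 and TS42 had 2 each.

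Among the members in the Ts66Yah colony, litters differed most in Hes5. The litter took 41.0% of its variance within genotypes, against a median of 12.0% over all probe sets and 11.1% from its share of the degrees of freedom. Within this colony Hey1 stood at 21.4%, Notch1 at 19.7% and Hes1 at 6.45%. In the Ts65Dn colony Rbpj stood at 25.7%, Hey1 at 25.5% and Jag1 at 15.4%, against a median of 13.8% and a share of 12.8%. Notch3 was at 3.79% and Hes1 at 3.28%, so littermates held nearly all of the spread of these genes.

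The members were then compared with each other among the embryos of a colony, as deviations from the group means. Over 41 and 47 embryos there were 90 relations, 45 in each colony, tested by two-sided permutation with adjustment over the 90. By Pearson's r 0 passed, with 13 at an unadjusted p under 0.05, and by Spearman's rho 2 passed. The sign was the same in both colonies for 27 of the 45 pairs. The target Hes5 and its regulator Rbpj ran opposite to each other in both. Their r was -0.40 and their rho -0.41 in the Ts65Dn colony (permutation p 0.011 and 0.0090, adjusted 0.164 and 0.163). In the Ts66Yah colony r was -0.43 and rho -0.47 (permutation p 0.0038 and 0.0010, adjusted 0.139 and 0.0797). Leaving out the 2 embryos farthest from the median of Rbpj gave r of -0.39 and -0.48.

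Because embryos shared dams, the relation was also taken within litters of 1 genotype, with the litter as a block. The values were then r of -0.58 and rho of -0.58 over 41 embryos of the Ts65Dn colony and r of -0.49 and rho of -0.57 over 46 of the Ts66Yah colony. Both passed, with a permutation p for r of 0.00039 and 0.0005, adjusted 0.0225 for each. The adjusted permutation p of rho was 0.0369 and 0.0243, and by either coefficient these were the only 2 of the 90 relations that passed. With array spread regressed out instead, r was -0.40 and -0.31, with adjusted permutation p of 0.255 and 0.454. Array spread, the standard deviation of an array, itself ran with Rbpj at r of 0.47 and rho of 0.43, and with Hes5 at r of -0.37 and rho of -0.33, in the Ts66Yah colony. Over the 20 relations of a member with array spread, the adjusted permutation p was 0.0024 and 0.0102 for Rbpj, and 0.0218 and 0.128 for Hes5 (raw p 0.00022, 0.0015, 0.0044 and 0.026). Without the 2 arrays of most extreme spread r was 0.47 and -0.41. In the Ts66Yah colony array spread also ran with Notch3 (r 0.51), Notch1 (0.48), Notch2 (0.35) and Hey2 (0.35). Their adjusted permutation p was 0.0057, 0.0024, 0.0899 and 0.0917 for r, and 0.0084, 0.0102, 0.278 and 0.333 for rho. Without the 2 most extreme arrays their r was 0.45, 0.42, 0.11 and 0.16. Dll3, Jag1, Hes1 and Hey1 did not pass. In the Ts65Dn colony r was -0.028 for Rbpj and -0.013 for Hes5, with adjusted permutation p of 0.921 and 0.939. As a description, Hes5 also ran against many other genes in the Ts66Yah colony: 7.02% of 9883 probe sets of at least median signal had an r with Hes5 within litters as low as that of Rbpj. In the Ts65Dn colony 15 of the 9883 did, or 0.152%. Nor was Hes5 the only gene opposite to Rbpj. With the 3 genes most like Hes5, named further on, Rbpj had r of -0.69 (Psmd8), -0.45 (Tle5) and -0.46 (Rps13) in the Ts66Yah colony, and of -0.13, -0.072 and -0.099 in the Ts65Dn colony. Jag1 with Hes5 had an r of -0.41 and a rho of -0.19 in the Ts66Yah colony (permutation p 0.0067 and 0.196, adjusted 0.139 and 0.629), and its r was -0.22 without the 2 embryos farthest out.

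Jag1 and Rbpj had a positive coefficient in the Ts65Dn colony, where r was 0.44 and rho 0.48 (permutation p 0.0046 and 0.0018, adjusted 0.139 and 0.0797), with an r of 0.33 without the 2 embryos farthest out, against an r of 0.27 in the Ts66Yah colony. Notch1 and Dll3 had r of 0.43 and 0.064 in the Ts65Dn and Ts66Yah colonies, with no pair passing by r. Without the 2 embryos farthest out the Ts65Dn value was 0.31. Hey1 and Hey2 had r of 0.18 and 0.37. With the low-spread array kept in, 28 relations passed, 24 of them in the Ts66Yah colony, and Rbpj with Hes5 there was at -0.096, so that these counts turned on that array.

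**Figure D4:**
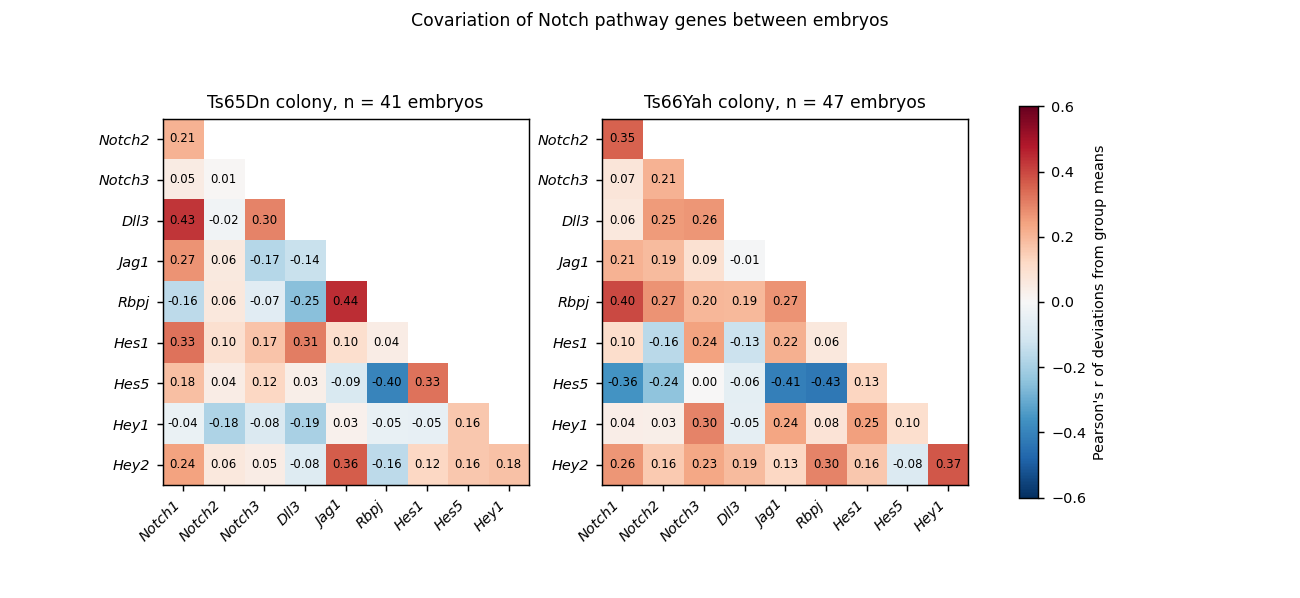
Pearson's r between the deviations of each pair of genes from their group means, in the 41 embryos of the Ts65Dn colony and in 47 of the Ts66Yah colony without the low-spread array. Colour and number give r. Rbpj with Hes5 was negative in both, at -0.40 and -0.43.

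The probe sets most like the members were sought among named ones of at least median signal, by the lower of the correlations in the 2 colonies (41 and 47 embryos), as a description. Hes5 had the closest: Psmd8, a proteasome subunit (0.64 in the Ts65Dn and 0.78 in the Ts66Yah colony), Tle5, a member of the Groucho family (0.62 and 0.63), and Rps13, a ribosomal protein (0.62 and 0.61). For Notch3 they were Snx1 (0.56 and 0.56), Saraf (0.56 and 0.53) and Armcx2 (0.49 and 0.53). For Hes1 they were Mdh2 (0.52 and 0.56), Coro1c (0.47 and 0.50) and Arhgap1 (0.47 and 0.47). The embryos behind both numbers share litters and arrays.

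The rest of the pathway was read from a list of 70 genes, of which 64 were measured: another receptor, ligands, sugar transferases that modify receptors, the proteases that cleave them, inhibitors, nuclear partners, other HES and HEY genes, and proneural genes. By limma 0 of the 64 passed in any comparison. In Ts65Dn 31 means were higher and 33 lower, with 2 higher and 4 lower at an unadjusted p under 0.05, where 5.79% of all probe sets fell. Their median log2 change was -0.0084, against -0.0021 over all probe sets. In Ts66Yah without the low-spread array 42 were higher and 22 lower, with 6 higher and 0 lower at that p, where 7.16% of all probe sets were higher and 4.94% lower. The median was 0.023, against 0.0044 over all probe sets. In the version with all arrays 52 were higher and 12 lower, and the median was 0.115, against 0.043 over all probe sets.

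The smallest p in Ts65Dn belonged to Heyl, the third HEY gene, known from mural cells of vessels. Heyl did not lie above the median signal of both colonies. It averaged 3.997 ± 0.340 in Ts65Dn embryos and 4.41 ± 0.48 in EupTs65Dn embryos (SD, n = 23 and 18). The log2 change was -0.41 ± 0.125 (SE), or 0.752-fold, with a limma adjusted p of 0.274. In Ts66Yah embryos it averaged 5.46 ± 0.34, against 5.23 ± 0.40 in EupTs66Yah embryos (SD, n = 24 and 23), a change of 0.23 ± 0.106. The difference between these effects, without the low-spread array, was -0.64 ± 0.164, with an unadjusted p of 0.0002 and an adjusted p of 0.123 (limma). With all arrays it was -0.70 ± 0.176, with a limma adjusted p of 0.469. Dtx4, a ubiquitin ligase of the Deltex family, had the smallest p in Ts66Yah without the low-spread array, with a change of 0.17 ± 0.062, 1.12-fold, and an adjusted p of 0.2498. Dll4, the ligand of arterial endothelium, had it with all arrays, at 0.29 ± 0.108, 1.22-fold, and an adjusted p of 0.381. Among the proneural genes that HES proteins repress 0 of 4 measured passed. Their median change was -0.14 in Ts65Dn and 0.038 in Ts66Yah without the low-spread array. With all arrays the Ts66Yah median was -0.013, so its sign turned on that array.

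**Figure D5:**
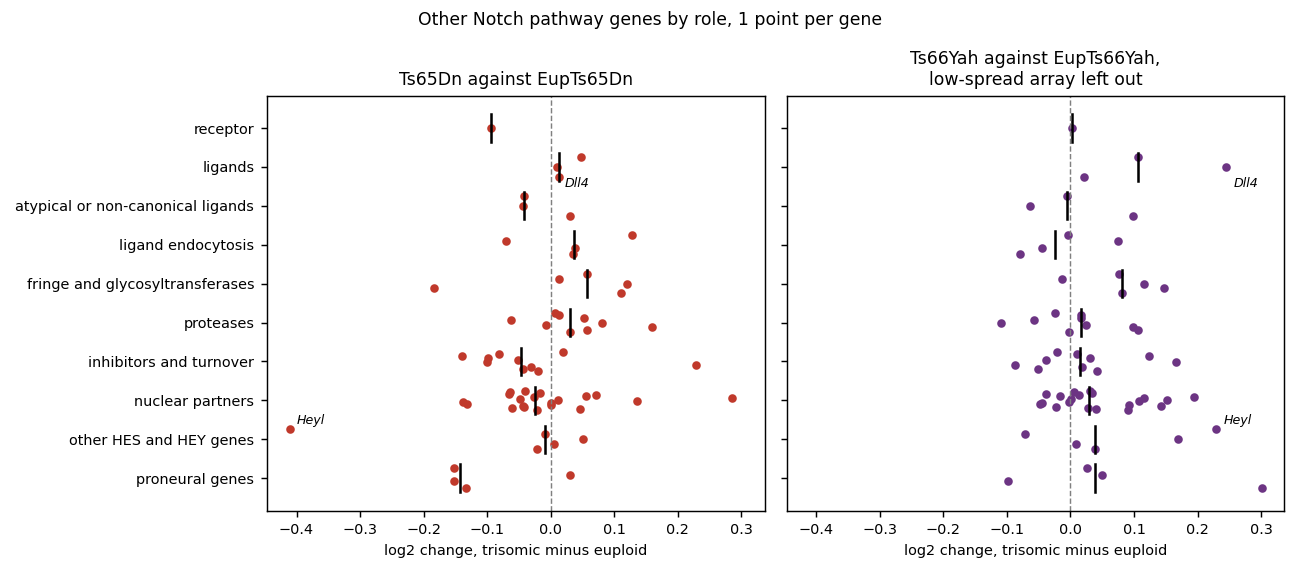
Log2 change, trisomic minus euploid (horizontal axes), of the 64 other pathway genes measured, 1 point per gene, by role (vertical axis). The left panel is Ts65Dn and the right panel Ts66Yah without the low-spread array, and lines are the median of each role. Heyl stands at -0.41 on the left and 0.23 on the right, and none passed the threshold.

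Markers of cells that carry these genes were read beside them. Of 8 mural cell markers 6 had lower means in Ts65Dn (median log2 change -0.058), and 6 had higher means in Ts66Yah without the low-spread array (median 0.110), with 0 past the threshold by limma in either. Their summed linear signal ran from 397 to 575 in Ts65Dn embryos, against 425 to 618 in EupTs65Dn embryos, and from 840 to 1205 in Ts66Yah embryos, against 690 to 1159 in EupTs66Yah embryos. Mural cell means thus lay low and high in the same models as Notch3 and Heyl. So, by their medians, did 8 interneuron and ventral forebrain markers, with 6 lower in Ts65Dn (median -0.068). In Ts66Yah without the low-spread array 5 of these were higher (median 0.082), with 0 past the threshold by limma in either. Other lists had medians of the same signs in Ts65Dn and in Ts66Yah without that array. They were astrocytes (-0.016 and 0.185), intermediate progenitors (-0.016 and 0.088) and cortical excitatory neurons (-0.029 and 0.011). The pattern was thus not particular to mural cells. The part of any of these cells in the values of Notch3 and Heyl was not tested. Of 8 endothelial markers 4 were higher and 4 lower in Ts65Dn, again with 0 past the threshold. In Ts66Yah 7 were higher without the low-spread array (median 0.126) and 8 with all arrays (median 0.186), with 0 past it either way. Without that array the endothelial sums ran from 1817 to 2490 in Ts66Yah embryos, against 1656 to 2226 in EupTs66Yah embryos. Of 12 radial glia markers 7 were higher in Ts65Dn (median 0.0066) with 0 past the threshold. In Ts66Yah 9 were higher without the low-spread array (median 0.086) and 12 with all arrays (median 0.177). Vim, an intermediate filament of radial glia, rose by 0.19 without that array, with an adjusted p of 0.085 (limma). With all arrays Vim did not pass, at 0.42 ± 0.23 and an adjusted p of 0.509. The radial glia sums ran from 9084 to 10575 in Ts65Dn embryos, against 8784 to 10758 in EupTs65Dn embryos. Without the low-spread array they ran from 16037 to 21966 in Ts66Yah embryos, against 15176 to 21171 in EupTs66Yah embryos. Astrocyte, meningeal and oligodendrocyte markers also lay higher in Ts66Yah without the low-spread array. Of 8 astrocyte markers 7 were higher (median 0.185), and of 7 meningeal markers 7 (median 0.120), with 0 past the threshold by limma. Their sums ran from 2702 to 5247 and from 1541 to 2903 in Ts66Yah embryos, against 2630 to 4974 and 1253 to 2429 in EupTs66Yah embryos. Of 6 oligodendrocyte lineage markers 5 were higher (median 0.252), and 2 rose, Gjc3, a connexin of these cells, by 0.67 and Mbp, a myelin protein, by 0.62 (limma adjusted p 0.0292 and 0.0503). Their sum ran from 282 to 696 in Ts66Yah embryos, against 285 to 695 in EupTs66Yah embryos. Gjc3 and Mbp did not lie above the median signal of both colonies. In Ts65Dn 3 of 8 astrocyte, 6 of 7 meningeal and 5 of 6 oligodendrocyte markers were higher (medians -0.016, 0.130 and 0.211), with 0 past the threshold. The part of all these cells in the values of Hes5, Notch3, Hey1 and Hey2 was not tested.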

How the data were processed

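Total RNA of 1 forebrain per array was measured on Clariom S high throughput arrays. The deposited files hold log2 signals per probe set, made with RMA per the submitters' processing notes; its version, its settings and the genome build of the array were not found in the sources used here. No filter was applied: 22206 probe sets were tested, of which 19572 carried 1 gene symbol and 2634 none. The number of arrays limits the precision.

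Each trisomic group was compared with its euploid group, and the effects with each other, in limma 3.58.1 under R 4.3.3 (lmFit and eBayes, two-sided), with p-values adjusted by Benjamini and Hochberg over the 22206 probe sets at a 10% threshold, after the unpaired tests and rate in the series text. Intervals are at 95%. Relations between members used 100000 permutations within groups (smallest p 1e-05), in Python 3.11.15 with numpy 2.4.6. Limma, and a permutation test of a correlation without groups, were run on simulated data of independent embryos. Permutation within groups or litters was not checked in this way.

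Litters pair embryos because the labels name the dam. Over all probe sets the litter took a median of 13.8% and 12.0% of the variance within genotypes, against 12.8% and 11.1% of the degrees of freedom. The litter as a block changed no call of a member between genotypes.

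The members, the gene lists and the alternatives were chosen with earlier results of these data known. All 10 members are named. Of other pathway genes and markers the rule took those past the threshold (of markers up to 4 a list, of which Vim, Gjc3 and Mbp are given), or the pathway gene with the smallest p. Likeness was given for the 3 members with the closest probe sets. Alternatives were the litter block, sex, the t-test, a stricter threshold of 0.05 and the marginal criterion of the series text, a filter at the median signal, quantile normalization, centring, array weights, a trended and robust prior, array spread, all 4 groups in 1 fit, and leaving out arrays or litters. Leaving out the 6 narrower arrays, and correlating members with array spread, were chosen after seeing the data. No label was changed.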

Additional observations from a re-analysis of the deposited data

How the results depend on the processing

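Of 754 values of members under the alternatives, 707 kept their sign and their side of the threshold, and 39 turned sign. Another 8 came past the threshold or met the marginal criterion. That criterion was an unadjusted p under 0.01 with a ratio outside 0.8 to 1.2, and is not the false discovery threshold. Hes5, Hes1, Notch3 and Hey1 kept their sign in both models, except Hes5 in Ts66Yah with all arrays under quantile normalization (-0.0075). In Ts66Yah with all arrays 2 members met the marginal criterion (Notch3 and Hey2), where their limma adjusted p was 0.359 and 0.228. The share of all probe sets that met it is not given. Once the low-spread array was left out, 1 member (Hey2) met that criterion. In that version the count past the false discovery threshold was 1 (Hey2) in these fits: with sex, with the median-signal filter, with the trended and robust prior, or without litter WT11 or WT13. For Hey2 without the low-spread array the range was 0.17 to 0.32, with adjusted p between 0.054 and 0.486. The count of related pairs was 28 with the low-spread array and 2 with the litter as a block (the replicate block). The block changed no call between genotypes, and turned only Notch1 in Ts66Yah without the low-spread array (-0.0169).

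The turned values were those of small changes, at most 0.094 in size, and the cause was not tested. In Ts65Dn they were Jag1 (0.017) and Hey2 (0.027) without litter TS125 and Dll3 (0.0033) without TS42. In Ts66Yah with all arrays, quantile normalization gave Notch1 -0.057, Notch2 -0.033 and Rbpj -0.029. Centring gave Notch1 -0.028 and Notch2 -0.028, and array weights gave Notch2 -0.045. Array spread gave Notch1 -0.011, Notch2 -0.051 and Rbpj -0.0064. Leaving out arrays against the sex label gave Notch1 -0.039 and Notch2 -0.030, litter WT12 gave Dll3 -0.044, and WT18 gave Notch1 -0.030, Notch2 -0.074 and Rbpj -0.043. Without the 6 narrower arrays Notch1 was -0.048, Notch2 -0.070 and Rbpj -0.027. In Ts66Yah without the low-spread array, quantile normalization gave Notch1 -0.040 and Rbpj -0.0058, centring gave Notch1 -0.034 and Rbpj -0.019, and array spread gave Notch1 -0.094 and Rbpj -0.042. Leaving out the arrays whose triplicated genes matched the other genotype gave Notch1 -0.0039, and arrays against the sex label Notch1 -0.039. Without WT12 Dll3 was -0.034, without WT18 Notch1 was -0.030 and Rbpj -0.043, and without WT19 Notch2 was 0.0070. For the difference of effects Hes1 was 0.030 with array spread and 0.031 without the 6 narrower arrays, and, without the low-spread array, 0.024 when centred and 0.059 with array spread.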
